A study of Mus musculus with 8 samples.

Results

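The 8 genes described here mark the perineurium and its barrier: Slc2a1, Cldn1, Gjb2, Gjb6, Msln, Krt19, Lypd2 and Perp. They were taken by symbol from a table of 23356 genes measured by RNA sequencing of sciatic nerve from mice aged 30 days, F1 animals of C57BL/6 and FVB/N, and all 8 were found. The 4 genotypes had 2 libraries each: HA-NRG1 type III/+:Q215X/+ (the double), which carried both a neuregulin 1 type III transgene and the mutant Q215X allele, HA-NRG1 type III/+ with the transgene alone, Q215X/+ with the mutant allele alone, and wild type (WT). The sources used here do not give the promoter that drives the transgene. Nothing in the labels says that the 2 libraries of a genotype are of separate animals, and p-values then measure a spread between libraries that may be technical. Only the 2 HA-NRG1 type III/+ libraries read as of different sex, and so not of the same animal.

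The perineurium is a sleeve of flattened cells that wraps each nerve fascicle and, together with the endothelium of the nerve's vessels, closes the space around the axons off from the body. Its cells seal their borders with tight junctions, to which claudin-1 belongs, couple to each other through connexin channels, and carry glucose inwards through GLUT1, the product of Slc2a1. Perineurial cells form in response to desert hedgehog, a signal that Schwann cells release.

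Values are FPKM, which scale fragments by the length of the gene and by library size, so levels may be compared between genes. Each genotype had 1 library whose column ended in 0 and 1 whose column ended in 1, called set 0 and set 1. Total FPKM ran from 443733 to 530901 per library, and common steps between low values gave relative depths from 0.728 to 1.08. Values are given in the order set 0 and set 1 throughout. Nrg1 stood between 0.164 and 0.498 FPKM in all libraries, and the sources used here do not say whether transgene reads count under it. By their Xist and Ddx3y levels, the double and WT libraries were female and the Q215X/+ libraries male. The HA-NRG1 type III/+ library was male in set 0 and female in set 1. Sex and genotype therefore cannot be told apart in the double against Q215X/+ or in Q215X/+ against WT. The Q215X/+ library of set 1 stood apart by its skeletal muscle markers, with a summed level of 957.9 FPKM over 8 genes against 5.71 to 76.0 in the other 7 libraries.

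The connexin genes Gjb2 and Gjb6 lie next to each other on chromosome 14 of mouse build GRCm38, both on the minus strand, at 57098600 to 57104702 and 57123303 to 57133611, with 18600 bases between them. Their promoters are shown because Gjb2 had the largest differences between genotypes of the 8 genes, while its neighbour Gjb6 was close to the lowest level that was tested. Each run holds the 250 bases before the gene's start as RefSeq (GRCm38.p6) gives it, at chr14:57104703-57104952 for Gjb2 and chr14:57133612-57133861 for Gjb6, minus strand, with GC boxes (GGGCGG on either strand) in capitals.
Gjb2: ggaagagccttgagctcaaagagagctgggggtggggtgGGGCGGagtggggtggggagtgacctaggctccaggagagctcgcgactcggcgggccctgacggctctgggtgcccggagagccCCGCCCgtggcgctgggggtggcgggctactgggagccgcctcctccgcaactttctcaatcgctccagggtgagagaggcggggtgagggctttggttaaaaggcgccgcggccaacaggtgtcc
Gjb6: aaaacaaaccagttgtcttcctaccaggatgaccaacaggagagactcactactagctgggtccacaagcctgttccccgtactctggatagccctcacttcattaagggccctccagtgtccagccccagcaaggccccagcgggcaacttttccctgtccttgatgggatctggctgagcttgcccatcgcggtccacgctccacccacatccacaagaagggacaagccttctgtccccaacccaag
The Gjb2 window held 2 GC boxes and 69.2% G or C bases, and the Gjb6 window held 0 GC boxes and 56.8% G or C bases. Over all 32851 promoter windows of this length, 32.7% held a GC box. Neither window held the letters TATAAA or TGANTCA on either strand, which 12.4% and 6.75% of all windows held, and no 2 of these motifs overlapped. These matches describe the letters only. The RefSeq promoter table also held Slc2a1 and Cldn1, and of the 8 genes 4 matched it. In GENCODE M21 (GRCm38), Slc2a1 spans chr4:119108711-119137983 and Perp chr10:18845020-18857073 on the plus strand. On the minus strand Cldn1 spans chr16:26356642-26371841, Msln chr17:25748613-25754378, Krt19 chr11:100140810-100148665 and Lypd2 chr15:74732247-74734329. Only Slc2a1 of the 8 overlaps other annotated genes, Mir1957a and the antisense Gm12867 and Gm12868, none of them in the table, and whether strand was used in counting is not stated.

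Averaged over the 8 libraries, the order of levels was Slc2a1 at 111.3 FPKM, Cldn1 at 73.7, Lypd2 at 63.1, Msln at 23.8, Perp at 21.4, Krt19 at 20.1, Gjb2 at 6.81 and Gjb6 at 0.954. The ranges over libraries of Msln, Perp and Krt19 overlapped, as did those of Cldn1 and Lypd2, while Slc2a1, Gjb2 and Gjb6 overlapped with no other member. Of the 12530 genes that averaged 1 FPKM or more, 92.1% lay at or below Cldn1 and 36.9% at or below Gjb2. Gjb6 missed that level, so 7 of the 8 genes were tested. The highest library held 1.33 times the lowest for Krt19, 1.36 times for both Slc2a1 and Perp, and 2.61 times for Gjb2, against a median of 1.34 times over all tested genes.

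The label was checked against markers of other cells that use these genes. Epidermis, which also expresses connexin 26, Perp and Cldn1, was represented by 14 genes, of which Krt5, Krt14, Krt1, Krt15, Trp63, Lor, Ivl, Dsg1a, Dsc3 and Epcam stayed under 0.5 FPKM in every library. The sum of that list (70.4 to 98.1 FPKM) came mostly from Cdh1, at 64.7 to 92.5 FPKM, which Schwann cells also express. Mesothelium, which shares Msln and Krt19, was represented by 8 genes summing to 6.03 to 10.1 FPKM. Its markers Upk3b, Upk1b, Lrrn4, Krt8, Krt18 and Bnc1 stayed under 0.5 FPKM, while Wt1 stood at 3.81 to 7.33 and Krt7 at 1.78 to 3.31. The other epidermis markers were low but not at 0: Krt10, a keratin of the upper epidermis, stood at 2.22 to 3.63 FPKM, Krt17 at 0.618 to 1.17 and Sfn at 0.874 to 1.38. The basal keratins Krt5 and Krt14 and the uroplakins of mesothelium were under 0.5 FPKM while Slc2a1 reached 129.8. In whole nerve, fewer cells of a type and less RNA per cell cannot be told apart.

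**Figure D1:**
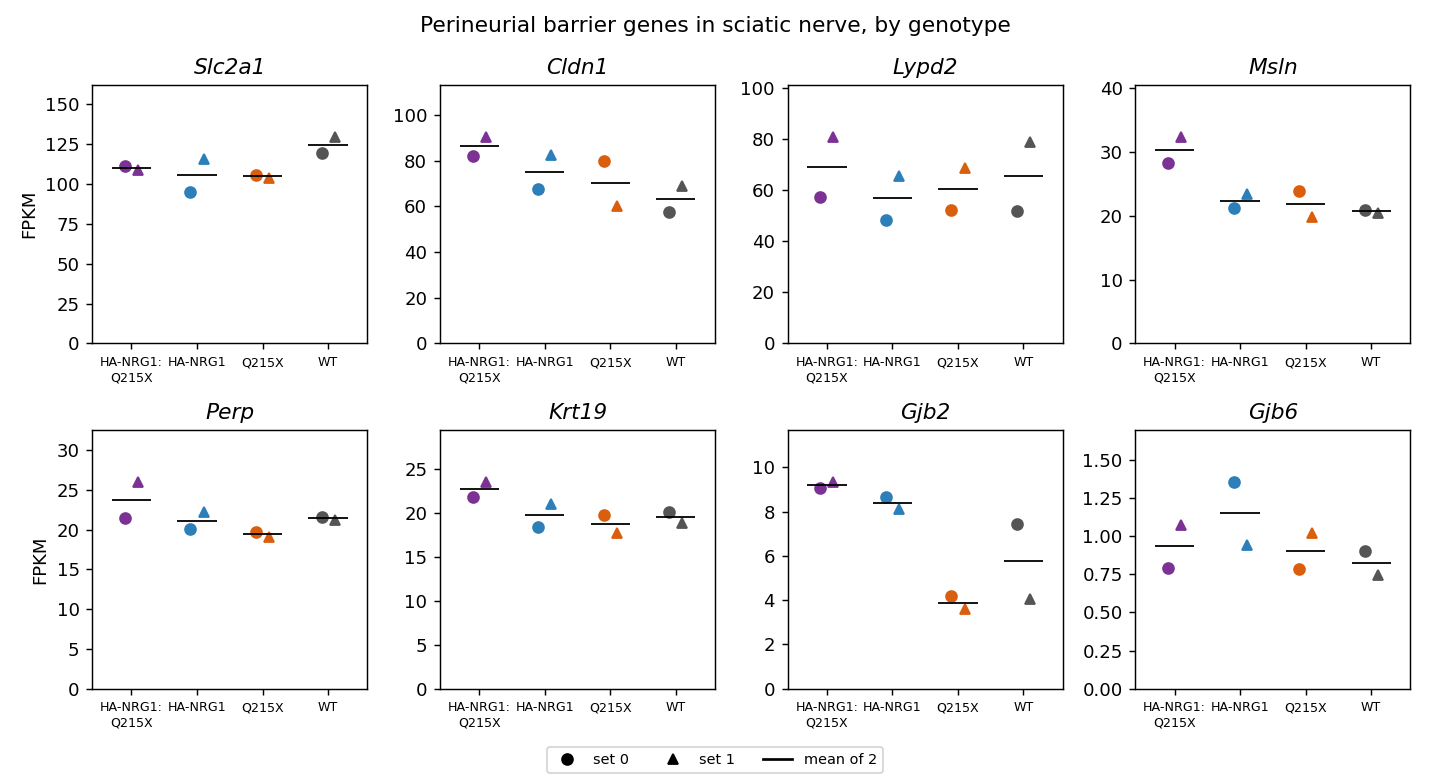
FPKM of the 8 perineurial genes by genotype, with circles for set 0, triangles for set 1 and a line at the mean of 2 libraries. Axes start at 0. Gjb2 stands at 8.10 to 9.35 in the 4 libraries with the transgene and at 3.58 to 7.44 in the 4 without it, and Msln is highest in the double.

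Slc2a1 encodes the glucose transporter GLUT1 of perineurial cells and of the endothelium of the blood-nerve barrier. It stood at 111.3 and 108.9 FPKM in the double, 95.3 and 115.8 in HA-NRG1 type III/+, 105.9 and 104.0 in Q215X/+, and 119.4 and 129.8 in WT. Each of the 6 libraries with a transgene or mutant allele lay below both WT libraries. The mean was 110.1 ± 1.72 FPKM in the double, 105.5 ± 14.5 in HA-NRG1 type III/+, 105.0 ± 1.34 in Q215X/+ and 124.6 ± 7.40 in WT (SD, n = 2 each). On the scale of log2(FPKM + 1), the difference from WT was −0.18 in the double, −0.24 in HA-NRG1 type III/+ and −0.24 in Q215X/+ (SE 0.12 each). With limma and Benjamini-Hochberg adjustment over all tested genes, none of these passed (adjusted p = 0.956, 0.812 and 1). Summed endothelial markers, 12 genes led by Egfl7, stood at 308.0 and 330.8 FPKM in the double, 315.7 and 369.4 in HA-NRG1 type III/+, 266.5 and 333.5 in Q215X/+, and 317.6 and 373.7 in WT. Within each set this sum was below WT in all 3 other genotypes, as Slc2a1 was. Gene by gene, 6 of the 12 were below WT in the double (median log2 difference 0.00), 5 in HA-NRG1 type III/+ (median 0.02) and 11 in Q215X/+ (median −0.20). With the set as a block limma called 2 of the 12 lower in the double, Mfsd2a among them, and 0 higher (2.39% of all genes in either direction). It called 0 in HA-NRG1 type III/+ and Q215X/+ (2.11% and 0.00798%). Without the block it called 0 in the double (0.112%). Mfsd2a, a lipid transporter of barrier endothelium, stood at 46.2 and 42.4 FPKM in the double, 58.4 and 50.4 in HA-NRG1 type III/+, 55.9 and 54.9 in Q215X/+, and 73.3 and 64.4 in WT. Without it, an alternative chosen after seeing the data, the sums of the other 11 were 261.8 and 288.4 FPKM in the double, 257.3 and 319.0 in HA-NRG1 type III/+, 210.7 and 278.6 in Q215X/+, and 244.3 and 309.3 in WT. Those of HA-NRG1 type III/+ then lay above WT in both sets, and Q215X/+ below. The part of these markers in the level of Slc2a1 was not tested.

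Cldn1 encodes claudin-1, which seals the tight junctions between perineurial cells. It stood at 82.0 and 90.5 FPKM in the double, 67.8 and 82.3 in HA-NRG1 type III/+, 79.8 and 60.3 in Q215X/+, and 57.4 and 69.1 in WT. Both double libraries lay above both WT libraries, while the Q215X/+ libraries lay on either side of the WT library of set 1. The mean was 86.2 ± 6.06 FPKM in the double and 63.2 ± 8.25 in WT (SD, n = 2). The log2 difference was 0.45 (SE 0.18, limma unadjusted p = 0.0422, adjusted p = 0.661). Libraries of the double and of WT read as the same sex. Against Q215X/+ the double differed by 0.31 (SE 0.18, adjusted p = 0.965), with 0.04 within set 0 and 0.58 within set 1.

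Gjb2 encodes connexin 26, a subunit of the gap junction channels between perineurial cells. It stood at 9.07 and 9.35 FPKM in the double, 8.69 and 8.10 in HA-NRG1 type III/+, 4.18 and 3.58 in Q215X/+, and 7.44 and 4.07 in WT. All 4 libraries with the transgene lay above all 4 without it, and the WT library of set 0 came closest to them. Of the 7 tested members Gjb2 alone was separated in this way, beside 4.88% of all tested genes that were higher without overlap and 5.2% that were lower. The mean was 9.21 ± 0.201 FPKM in the double and 3.88 ± 0.420 in Q215X/+ (SD, n = 2), a ratio of 2.37 and a log2 difference of 1.07 (SE 0.22). It was 8.39 ± 0.414 in HA-NRG1 type III/+ and 5.75 ± 2.38 in WT, a ratio of 1.46 and a log2 difference of 0.52 (SE 0.22, adjusted p = 0.745).

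Over both backgrounds the transgene difference of Gjb2 was 0.79 log2 units (SE 0.16), which missed the threshold in limma without the set as a block (adjusted p = 0.0929) and passed with it (adjusted p = 0.0186). Limma thus called 0 of the 7 members over both backgrounds without the block and 1 with it, beside 0.99% and 7.1% of all tested genes. Gjb2 and Msln had an unadjusted p under 0.05 in both fits, as did 11.2% of all genes without the block and 23.3% with it. The double against Q215X/+ likewise had an adjusted p of 0.259 without the block and 0.0498 with it. With the block, Gjb2 thus rose with the transgene over both backgrounds and in the mutant nerve. Without the WT library of set 0 the difference over both backgrounds was 0.98 and passed without the block (adjusted p = 0.0222). With both the block and sex in the fit it was 0.74 and the call ended (adjusted p = 0.0871), and for the double against Q215X/+ the fit gave 0.87 (adjusted p = 0.771). Among the libraries read as male, Gjb2 stood at 8.69 FPKM in HA-NRG1 type III/+ and at 4.18 and 3.58 in Q215X/+. Among those read as female, it stood at 9.07 and 9.35 in the double, 8.10 in HA-NRG1 type III/+, and 7.44 and 4.07 in WT.

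Gjb6 encodes connexin 30, which can pair with connexin 26 in 1 channel. It stood at 0.795 and 1.08 FPKM in the double, 1.36 and 0.946 in HA-NRG1 type III/+, 0.784 and 1.02 in Q215X/+, and 0.902 and 0.746 in WT. The groups overlapped except that both HA-NRG1 type III/+ libraries lay above both WT libraries. In a fit without a filter on low values the transgene difference over both backgrounds was 0.13 (SE 0.09, limma adjusted p = 0.771). These levels lie near the pseudocount of 1, so that scale understates differences of Gjb6.

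Msln encodes mesothelin, a surface protein anchored in the membrane by a lipid. It stood at 28.2 and 32.4 FPKM in the double, 21.2 and 23.4 in HA-NRG1 type III/+, 23.9 and 19.8 in Q215X/+, and 20.9 and 20.5 in WT. Both double libraries lay above all 6 others. The mean was 30.3 ± 2.97 FPKM in the double, 21.9 ± 2.84 in Q215X/+ and 20.7 ± 0.317 in WT (SD, n = 2 each). The log2 difference was 0.46 against Q215X/+ (SE 0.12, limma adjusted p = 0.385) and 0.53 against WT (SE 0.12, limma adjusted p = 0.283). With the block these had adjusted p = 0.117 and 0.0705, so neither passed. Summed mesothelium markers stood at 8.02 and 9.93 FPKM in the double, 7.31 and 10.1 in HA-NRG1 type III/+, 6.55 and 6.98 in Q215X/+, and 6.03 and 7.59 in WT. Both double libraries were above all Q215X/+ and WT libraries in this sum, and their part in the level of Msln was not tested.

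Lypd2 encodes a small surface protein of the Ly6 family. It stood at 57.5 and 81.0 FPKM in the double, 48.3 and 65.8 in HA-NRG1 type III/+, 52.2 and 68.7 in Q215X/+, and 51.9 and 79.1 in WT. Set 1 was the higher in all 4 genotypes, and all groups overlapped except by set. Over both backgrounds the transgene difference was 0.00 log2 units, with an SE of 0.20 without the block and 0.05 with it.

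Krt19 encodes a keratin of simple epithelia, and Perp a membrane protein of desmosomes that p53 and p63 switch on. Krt19 stood at 21.8 and 23.5 FPKM in the double, 18.4 and 21.0 in HA-NRG1 type III/+, 19.7 and 17.7 in Q215X/+, and 20.1 and 18.9 in WT. Perp stood at 21.4 and 26.0 FPKM in the double, 20.1 and 22.2 in HA-NRG1 type III/+, 19.7 and 19.1 in Q215X/+, and 21.6 and 21.2 in WT. Both genes were higher in both double libraries than in both Q215X/+ libraries, and Krt19 also than in all 6 others. The difference between the double and Q215X/+ was 0.26 for Krt19 (SE 0.10, limma adjusted p = 0.692) and 0.27 for Perp (SE 0.11, adjusted p = 0.739). With a term for sex these differences were 0.08 and 0.13. Keratins work as pairs of an acidic and a basic chain, and the usual basic partner of Krt19 in simple epithelia, Krt8, was at 0 to 0.0339 FPKM.

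The double was set against Q215X/+ to ask how the transgene alters a mutant nerve, the question of the series title. All 7 tested members were higher in the double within set 0 and within set 1, where 28.5% of all tested genes were, and 0 were lower in both sets, beside 33.2%. All the Q215X/+ libraries read as male and all the double libraries as female. A term for sex turned Slc2a1 to −0.21 and Lypd2 to −0.25. It left Cldn1 at 0.03, Krt19 at 0.08, Perp at 0.13, Msln at 0.32 and Gjb2 at 1.16. With the block as well, Slc2a1 stood at −0.19, Lypd2 at 0.24, Cldn1 at 0.03, Krt19 at 0.04, Perp at 0.20, Msln at 0.29 and Gjb2 at 0.87. For 6 of the 7 the groups did not overlap, against 14.6% of all tested genes, and Lypd2 was the exception. The median difference was 0.27 log2 units over the 7 members and −0.01 over all tested genes. The members share cells and libraries and are not independent of each other, and the differences other than that of Gjb2 ranged from 0.07 for Slc2a1 to 0.46 for Msln.

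Limma called 0 of the 7 in this comparison without the block, where it called 0.0399% of all tested genes, and 4 had an unadjusted p under 0.05 beside 6.58% of all genes. With the block it called 1, Gjb2, beside 1.72% of all genes, and 5 had an unadjusted p under 0.05 beside 15.7%. The sums of red blood cell markers were 73.3 and 178.0 in the double and 600.1 and 1281 FPKM in Q215X/+, with all 5 tested genes lower in the double. Endothelial markers were higher in the double for 10 of 12 genes (median 0.19, 4 with an unadjusted p under 0.05), and pericyte and smooth muscle markers for 6 of 7 (median 0.09). Macrophage markers were higher for 5 of 6 genes (median 0.20) and adipocyte markers for 5 of 6 (median 0.20). Of 9 Schwann cell markers counted, 8 were lower (median −0.14), all 7 skeletal muscle markers were lower, and fibroblast markers were split 5 and 5 (median 0.02). The part of these cell types in the members' differences was not tested. Without the muscle-rich Q215X/+ library of set 1, all 7 members were higher in the double without overlap. With a single Q215X/+ library left, groups separate more easily, and the share of all tested genes that did so was not computed. Lypd2 joined because only its lower Q215X/+ value, 52.2 FPKM of set 0, remained.

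**Figure D2:**
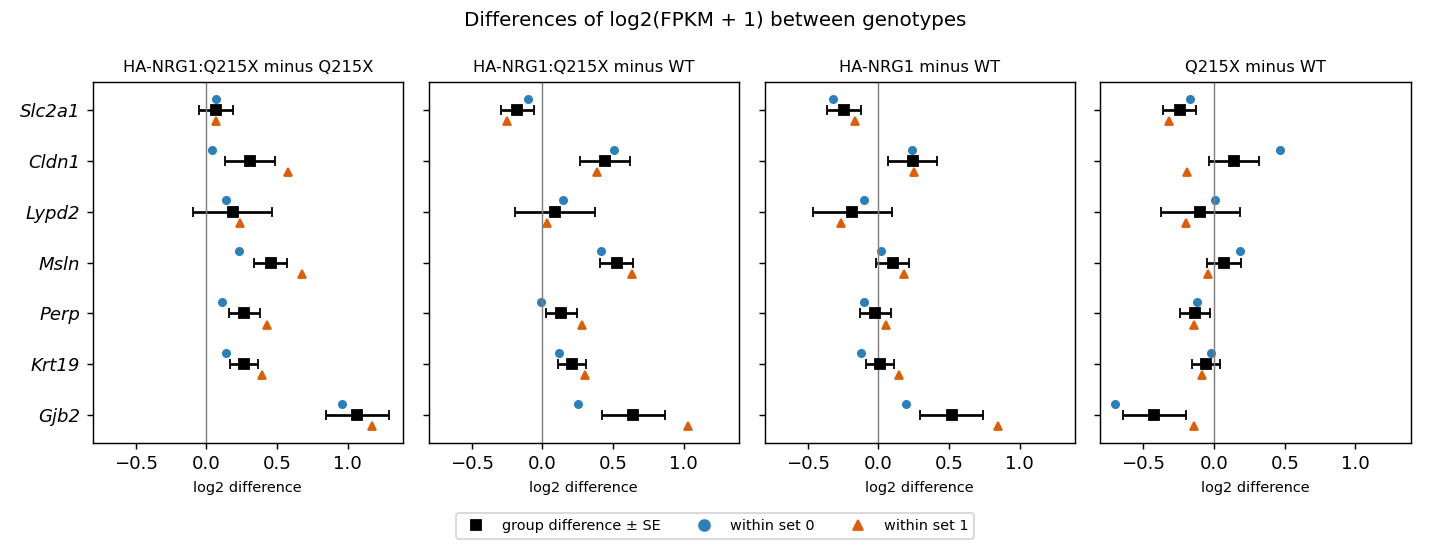
Differences of log2(FPKM + 1) for the 7 tested members in 4 comparisons, with squares and bars for the group difference and its SE from limma, circles for the difference within set 0 and triangles for that within set 1. In the double minus Q215X/+ all 14 within-set differences lie above 0, and Gjb2 reaches 1.07, while in Q215X/+ minus WT no member is above 0 in both sets.

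The double against WT asks how far the mutant nerve with the transgene stands from an untouched nerve. Cldn1, Gjb2, Msln and Krt19 were higher in both double libraries than in both WT libraries, 4 of 7 beside 14.4% of all tested genes, and Slc2a1 was lower, beside 16.7%. Within both sets 5 members were higher and 1 was lower, beside 28.4% and 35.0% of all tested genes. The largest difference was that of Gjb2, at 0.64 (SE 0.22, limma adjusted p = 0.554 and 0.134 with the block). Limma called 0 of the 7, where it called 0.112% of all genes, and 3 had an unadjusted p under 0.05 beside 7.29% of all genes. With the block it also called 0 (2.39% of all genes), with 3 at an unadjusted p under 0.05 (17.9%). The median was 0.21 over the members and −0.01 over all tested genes. Chosen after the values were seen, a comparison of the double with all 3 other genotypes put Gjb2, Msln and Krt19 above all 6 other libraries, 3 of 7 beside 2.14% of all tested genes, and 0 below them, beside 2.85%.

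HA-NRG1 type III/+ was set against WT to ask how the transgene alters a nerve that lacks the mutation. Gjb2 and Msln were higher without overlap, 2 of 7 beside 14.7% of all tested genes, and Slc2a1 was lower, beside 15.7%. Within both sets 3 members were higher and 2 were lower, beside 28.7% and 33.3% of all tested genes. The difference of Msln was small, at 0.10 log2 units (SE 0.12, limma adjusted p = 1). Limma called 0 of the 7, where it called 0.0638% of all genes, and 0 had an unadjusted p under 0.05 beside 6.9% of all genes. With the block it also called 0 (2.11% of all genes), with 3 at an unadjusted p under 0.05 (17.5%). The median was 0.01 over the members and −0.01 over all tested genes.

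Q215X/+ against WT asks what the mutant allele changes. Slc2a1 and Perp were lower without overlap, 2 of 7 beside 10.2% of all tested genes, and 0 were higher, beside 8.78%. Within both sets 4 members were lower and 0 were higher, beside 26.7% and 23.4% of all tested genes. Limma called 0 of the 7, where it called 0.00798% of all genes, with 0 at an unadjusted p under 0.05 (2.04% of all genes) and 1 with the block (7.41%). The difference of Perp was −0.13 (SE 0.11, adjusted p = 1), at 19.4 ± 0.428 FPKM in Q215X/+ and 21.4 ± 0.240 in WT (SD, n = 2). The median was −0.10 over the members and −0.01 over all tested genes.

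The interaction, the transgene difference in the mutant minus that in WT, was above 0 for all 7 members. Its median was 0.31 over the members and 0.00076 over all tested genes, and the share of all genes above 0 was not computed. It ranged from 0.06 for Cldn1 (SE 0.25) to 0.55 for Gjb2 (SE 0.32). Limma called 0 of them (0.00798% of all genes), with 0 at an unadjusted p under 0.05 (1.11%) and 2 with the block (4.78%), Slc2a1 and Lypd2. The transgene comparisons on the 2 backgrounds differ in the sex of their libraries. A term for sex alone turned the interaction of Slc2a1, Cldn1, Krt19 and Lypd2 below 0 (−0.11, −0.35, −0.02 and −0.29). With the block as well these were −0.07, −0.35, −0.09 and 0.45, so Lypd2 then stayed above 0.

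Ratios within a library show how the members changed against each other. Gjb2 stood at 11.1% and 10.3% of the FPKM of Cldn1 in the double, 12.8% and 9.84% in HA-NRG1 type III/+, 5.23% and 5.94% in Q215X/+, and 12.95% and 5.89% in WT. It was thus higher relative to Cldn1 in both double libraries than in both Q215X/+ libraries, while the WT library of set 0 lay with those of the transgene. The mean log2 level of the other 6 tested members was 5.49 and 5.68 in the double, 5.24 and 5.48 in HA-NRG1 type III/+, 5.37 and 5.29 in Q215X/+, and 5.31 and 5.45 in WT. Msln ran at 34.4% and 35.8% of Cldn1 in the double, 31.4% and 28.4% in HA-NRG1 type III/+, 29.9% and 32.9% in Q215X/+, and 36.4% and 29.6% in WT, so that the genotypes were closer than for Msln itself.

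**Figure D3:**
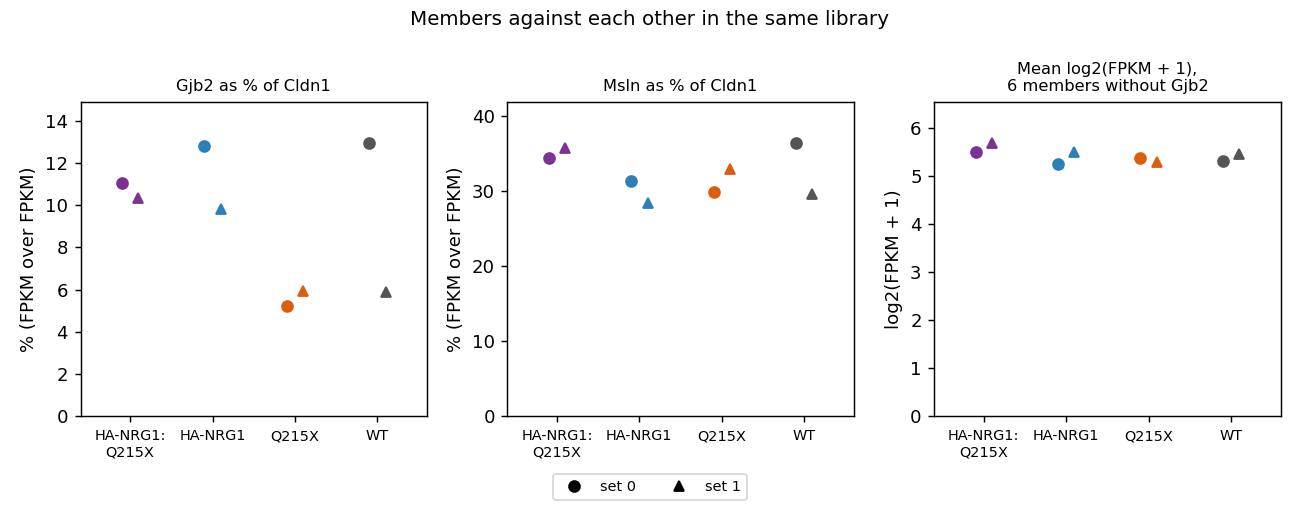
Gjb2 and Msln as a percentage of Cldn1 in the same library, and the mean log2(FPKM + 1) of the 6 tested members other than Gjb2, by genotype, with circles for set 0 and triangles for set 1. Gjb2 was at 10.3% and 11.1% of Cldn1 in the double and at 5.23% and 5.94% in Q215X/+, and the mean of the other members spans 5.24 to 5.68.

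As a description over the 8 libraries, which share genotypes, sets and scaling, Msln and Krt19 ran together most closely of the 28 pairs of members (Pearson r = 0.92, and 0.92 after each set was centred). Krt19 and Perp had r = 0.87 and Cldn1 and Msln r = 0.85. Slc2a1 ran apart from them, with r = −0.09 to Msln and −0.05 to Cldn1, and had r = −0.73 to Gjb6. The genes outside the list whose log2 level was most like the mean of the tested members, of 11816 compared, were Il13ra1, Itih2, Slc17a5, Gdpd5, Cox18 and Oscp1, with r from 0.94 to 0.96. Il13ra1 stood at 6.86 and 7.18 FPKM in the double, 5.93 and 6.60 in HA-NRG1 type III/+, 5.77 and 5.36 in Q215X/+, and 5.72 and 5.63 in WT.

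Further genes with reported perineurial expression were Itgb4, Ntng1, Mpzl2, Ntn4, Tenm2, Crabp2 and Gja1, all tested. Over both backgrounds limma called 0 of the 7 without the block (0.99% of all genes) and 1 fall with it (3.69% of all genes), that of Ntng1, which encodes the adhesion protein netrin-G1. Ntng1 stood at 7.95 and 8.33 FPKM in the double, 6.60 and 6.99 in HA-NRG1 type III/+, 9.91 and 8.84 in Q215X/+, and 8.66 and 9.69 in WT, a difference of −0.28 (SE 0.06, adjusted p = 0.137, and 0.0399 with the block). All 4 libraries with the transgene lay below the 4 without it, in the direction opposite to Gjb2. Without the block 3 of the 7 had an unadjusted p under 0.05 (11.2% of all genes), namely Ntng1, Crabp2 at 0.22 (SE 0.07) and Itgb4 at −0.22 (SE 0.09). Gja1, the gene of connexin 43, stood at 20.5 and 17.9 FPKM in the double, 17.3 and 19.6 in HA-NRG1 type III/+, 19.3 and 14.8 in Q215X/+, and 17.1 and 18.7 in WT, with all groups overlapping.

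Of 28 other tight junction genes, 15 were tested and 1 rose and 0 fell over both backgrounds without the block (0.535% and 0.455% of all genes), and 2 rose with it (3.42%). Jam2, a junctional adhesion molecule of endothelial and other cells, stood at 17.2 and 15.8 FPKM in the double, 19.0 and 18.1 in HA-NRG1 type III/+, 12.3 and 11.4 in Q215X/+, and 13.2 and 12.9 in WT. Its difference was 0.46 (SE 0.06, limma adjusted p = 0.0332 and 0.0036 with the block), and the 4 transgene libraries lay above the others. In the 3 single comparisons that involve the transgene Jam2 passed with the block only. Its adjusted p was 0.0276 with the block and 0.206 without it in the double against Q215X/+, 0.0418 and 0.346 in the double against WT, and 0.0201 and 0.197 in HA-NRG1 type III/+ against WT. With sex added to the block none of the 3 passed (adjusted p = 0.682, 0.0883 and 0.135), at differences of 0.43, 0.32 and 0.49. Cldn14, a barrier claudin, stood at 10.8 and 13.7 FPKM in the double, 10.5 and 15.4 in HA-NRG1 type III/+, 6.66 and 9.91 in Q215X/+, and 6.40 and 10.9 in WT. It was higher with the transgene within each set, and its difference of 0.54 passed with the block (adjusted p = 0.416 without it and 0.00881 with it). In HA-NRG1 type III/+ against WT Cldn14 likewise passed with the block only, at 0.55 (adjusted p = 0.884 without it and 0.0451 with it). Tjp1, which encodes the scaffold ZO-1 to which claudins bind, had −0.02 (SE 0.12).

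Of 19 gap junction genes other than the members, 9 were tested. Limma called 0 of them over both backgrounds without the block (0.99% of all genes) and 1 fall with it (3.69% of all genes). Gjc3, the connexin 29 gene of myelinating Schwann cells, stood at 115 and 97.4 FPKM in the double, 115 and 99.2 in HA-NRG1 type III/+, 138 and 129 in Q215X/+, and 125 and 116 in WT, and fell over both backgrounds with the block (−0.25, limma adjusted p = 0.349 without it and 0.022 with it). Of these 9 genes, none but Gjc3 was called in any of the 6 contrasts, with or without the block.

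Of 17 genes of glucose and lactate transport beside Slc2a1, 11 were tested and limma called 0 in all contrasts. Over both backgrounds 2 had an unadjusted p under 0.05 without the block (11.2% of all genes), and 2 with it (23.3%). Slc16a7, a monocarboxylate transporter, had −0.33 (SE 0.09, adjusted p = 0.187), and Slc2a13, a proton and myo-inositol transporter, had 0.25 (SE 0.09, adjusted p = 0.375). Of 16 hedgehog genes 13 were tested, with 0 called in all contrasts. An unadjusted p under 0.05 over both backgrounds was reached by 1 (11.2% of all genes), and by 6 with the block (23.3% of all genes). Dhh, the Schwann cell signal for perineurial cells, stood at 194 and 186 FPKM in the double, 211 and 188 in HA-NRG1 type III/+, 175 and 194 in Q215X/+, and 172 and 162 in WT. Its receptor and target Ptch1 had a transgene difference of 0.20 (SE 0.09, adjusted p = 0.542), and the transcription factor Gli2 had −0.24 (SE 0.09, adjusted p = 0.366).

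Of 17 keratin and desmosome genes other than Krt19 and Perp, 5 were tested and limma called 0 in all contrasts. Over both backgrounds 1 had an unadjusted p under 0.05 without the block (11.2% of all genes), and 1 with it (23.3%). Pkp2, a plakophilin of desmosomes, had 0.29 (SE 0.09, adjusted p = 0.259) and Krt7, a basic keratin, 0.17 (SE 0.11, adjusted p = 0.731). The list of relatives of Msln, Lypd2 and Perp held 19 genes, 9 of them tested. Without the block 1 rose and 0 fell over both backgrounds (0.535% and 0.455% of all genes). With it 1 rose and 2 fell (3.42% and 3.69% of all genes). Ly6h, a Ly6 family gene, rose over both backgrounds with a difference of 0.58 (SE 0.07, limma adjusted p = 0.0317 and 0.00761 with the block). It stood at 1.82 and 2.04 FPKM in the double, 1.53 and 1.63 in HA-NRG1 type III/+, 0.760 and 0.847 in Q215X/+, and 0.848 and 0.885 in WT. With the block only, it also rose in the double against Q215X/+ (0.70, adjusted p = 0.0311, and 0.143 without the block) and against WT (0.65, adjusted p = 0.0305, and 0.106 without the block). Emp2, a tetraspan membrane protein gene, and Ly6a, which vessel cells express, fell with the block (−0.30, adjusted p = 0.0264, and −0.38, adjusted p = 0.0352). Without the block they had adjusted p = 0.198 and 0.814. In the double against WT Ly6a had −0.74, with an adjusted p of 0.03 with the block and 0.902 without it. Adding sex to the blocked fit ended the calls of Ntng1, Gjc3, Emp2 and Ly6a over both backgrounds (adjusted p = 0.119, 0.0975, 0.0668 and 0.131), while their differences were −0.30, −0.24, −0.33 and −0.34, close to those without sex. It left the calls of Jam2, Cldn14 and Ly6h (0.0272, 0.0489 and 0.0405). Without the block, a term for sex ended the calls of Jam2 and Ly6h (adjusted p = 0.123 each), while their differences were 0.48 and 0.57.

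**Figure D4:**
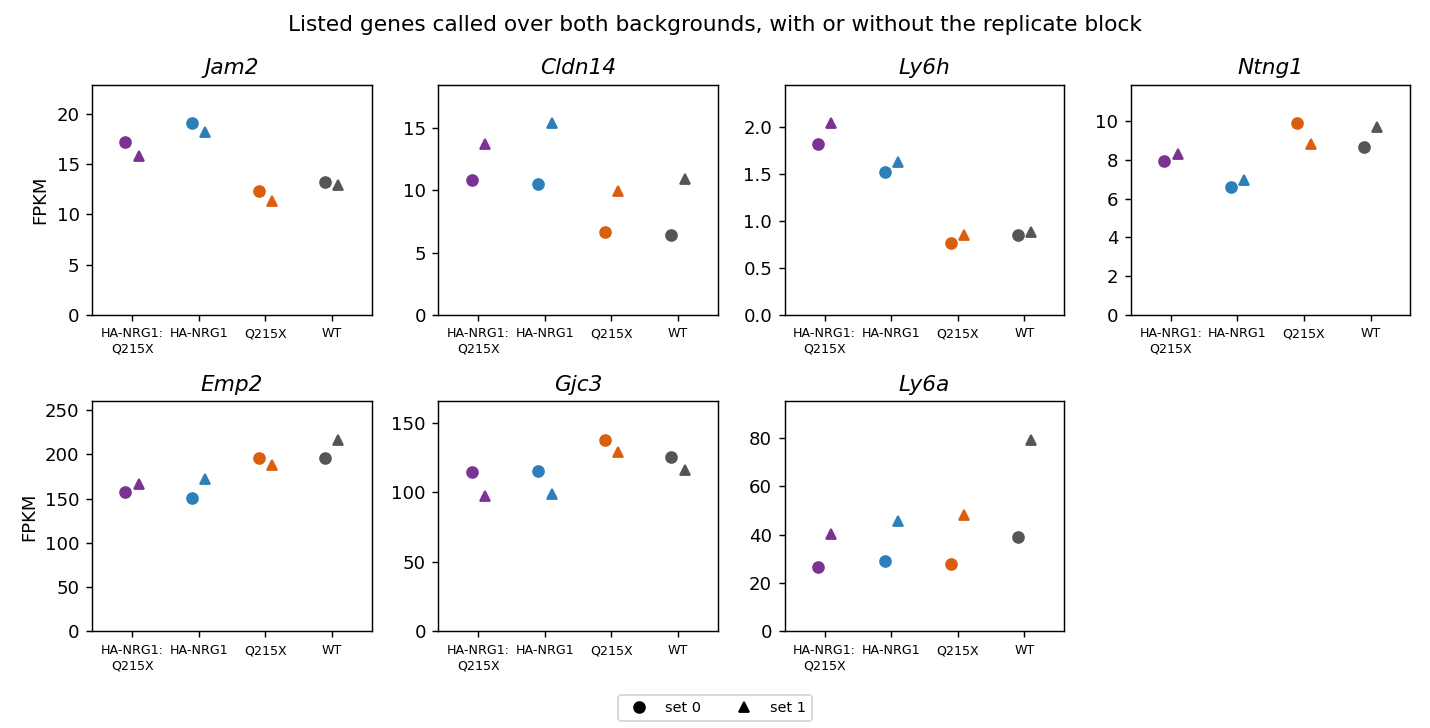
FPKM of the 7 listed genes outside the 8 members that limma called over both backgrounds without or with the set as a block, by genotype, with circles for set 0 and triangles for set 1. Axes start at 0. Jam2 and Ly6h are higher in all 4 libraries with the transgene, while Ntng1, Emp2 and Gjc3 are lower there.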

How the data were processed

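TruSeq libraries were made from poly A selected RNA, per the labels' protocols. The authors deposited 1 FPKM value per gene and library. TopHat2 2.0.9, Cufflinks 2.2.0 and build mm10 are named in the submitters' processing notes without roles. The sources used here do not give the annotation, strand handling or filters. Each line held an empty field after the symbol that the header lacks, so names were read against values in order. The stem hani was taken as HA-NRG1 type III/+, the genotype no other stem names.

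Of log2(FPKM + 1), the 12530 genes that averaged 1 FPKM or more were fitted with limma 3.58.1 (R 4.3.3): 4 group means, 4 residual degrees of freedom, an eBayes trend, 6 contrasts, and calls at a Benjamini-Hochberg adjusted p under 0.05. "Over both backgrounds" is the mean of the 2 transgene differences. In simulated data for that contrast, 200 of 12530 genes were changed, 100 by 1 and 100 by 2 log2 units. Of these, 90% and 98% were called, with 7 false calls. The members' differences in that contrast ran from −0.09 to 0.79 log2 units, and the share called at such sizes was not tested.

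The column ending was used as a pairing from the data, not a label: the set 1 minus set 0 differences correlated at 0.118 to 0.304 in all 6 pairs of genotypes. Where this replicate block (3 residual degrees of freedom) changed a call of a member or of a gene on the 7 pathway and family lists, both values are given. Without counts, depth is known only in relative terms, and no counting interval is given.

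The members, lists and tests were chosen with earlier results of these data known. Named were the 8 members, up to 4 called genes per list and contrast, or otherwise the 2 of smallest p over both backgrounds, and the 6 genes most like the members. Itgb4, Crabp2, Gja1, Tjp1, Dhh and Krt8 were named outside that rule. Tried besides were other pseudocounts, filters and scalings, a term for sex, single comparisons and leaving out each library. The check of the mutated gene is not reported here.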

Additional observations from a re-analysis of the deposited data

Results flagged for a closer look

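Slc2a1 and Lypd2 were lower with the transgene on the WT background and higher with it on the mutant background, in both sets. For Slc2a1 the transgene difference in the mutant minus that in WT was 0.31 log2 units (0.311, SE 0.17), and for Lypd2 it was 0.37 (0.3686, SE 0.40). This was tested as an interaction in limma and was called for neither gene (adjusted p = 1, or 0.965 in each case with the set as a block). With a term for sex alone both values fell below 0, at −0.11 and −0.29. With the block as well, Slc2a1 had −0.07 and Lypd2 had 0.45, so Lypd2 stayed above 0 in that fit.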

How the results depend on the processing

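Without the block limma called 0 of the 7 tested members in all 6 contrasts. That count was also 0 with a pseudocount of 0.1, without a filter, with either rescaling, with a term for sex alone or beside the block, and with the groups of a comparison alone. With the set as a replicate block it was 1 in the double against Q215X/+ and 1 over both backgrounds, Gjb2 each time, and the block changed no other call of a member. Leaving out each of the 8 libraries in turn gave 0 to 1 over both backgrounds, with 1 without the WT library of set 0, and 0 in the other 5 contrasts. The counts of 7 and 6 members higher in the double than in Q215X/+ were checked under both rescalings and without single sets or libraries, chosen after seeing the data, and stayed at 7 and at 5 to 7. No share over all tested genes was computed for these alternatives.

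Of 658 values of single members under alternatives, 611 kept direction and side of the threshold, 3 passed it (all of Gjb2) and 44 changed sign, all of these uncalled before and after, and their cause was not tested. With a term for sex alone and beside the block, Slc2a1 had −0.21 and −0.19 in the double against Q215X/+, 0.034 and 0.013 in Q215X/+ against WT, and −0.11 and −0.074 in the interaction. Cldn1 had −0.35 and −0.35 in the interaction, and Krt19 had 0.13 and 0.17 in Q215X/+ against WT and −0.020 and −0.085 in the interaction. Perp had 0.047 and 0.013 in HA-NRG1 type III/+ against WT, where the rescaling without short RNA gave 0.016, and 0.00071 in Q215X/+ against WT with the term alone. With that term alone Lypd2 had −0.25 in the double against Q215X/+, 0.037 in HA-NRG1 type III/+ against WT, 0.34 in Q215X/+ against WT, −0.11 over both backgrounds and −0.29 in the interaction. With sex beside the block, Lypd2 had 0.24 in the double against Q215X/+ and 0.45 in the interaction.

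Without 1 library, Lypd2 ran from −0.058 to 0.43 in the double against Q215X/+, −0.21 to 0.39 in the double against WT, −0.48 to 0.12 in HA-NRG1 type III/+ against WT, −0.40 to 0.20 in Q215X/+ against WT and −0.15 to 0.15 over both backgrounds. Cldn1 ran from −0.060 to 0.34 in Q215X/+ against WT and −0.13 to 0.26 in the interaction, and Msln from −0.057 to 0.20 in Q215X/+ against WT. Krt19 ran from −0.077 to 0.10 in HA-NRG1 type III/+ against WT and −0.13 to 0.019 in Q215X/+ against WT. Perp ran from −0.00053 to 0.27 in the double against WT and −0.088 to 0.047 in HA-NRG1 type III/+ against WT.

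Gjb2 over both backgrounds ran from 0.61 to 0.98. FPKM values hold no counts, so the counting error of Gjb6, at about 1 FPKM, is unknown. The term for sex rests on the 2 HA-NRG1 type III/+ libraries alone, which are also of different sets. Without the block, sex and set therefore cannot be told apart in that term.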
